A study of Mus musculus with 9 samples.

Results

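The 6 genes Col1a1, Col1a2, Col3a1, Col5a1, Col5a2 and Col5a3 encode the chains of fibrillar collagens I, III and V, and were taken by symbol from the 53713 gene rows of 1 single-cell matrix of mouse liver. Each symbol stood on 1 row. The question was which liver cells carried these transcripts, whether the same cells carried all of them, and whether the chains moved together between states of those cells. Cells were placed in classes by counting distinct marker genes with a unique molecular identifier (UMI, a tag that counts each captured transcript once). None of the 6 genes is such a marker, so their counts did not draw the classes.

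The matrix is labelled CluKO and holds liver cells of C57BL/6J mice aged 6 to 8 weeks that received recombinant human clusterin while they were given carbon tetrachloride (CCl4), a hepatotoxin that scars the liver, with the length of treatment not stated in the labels. Wild-type C57BL/6J mice of the same age given CCl4 for 0, 2 or 4 weeks make up the other 3 groups, with 1 sample each. Their 43087 cells sit in matrices whose rows carry no gene names, so the collagen genes were not analysed here in them. The design text speaks of pooled liver cells of 3 mice and the labels list 6 CluKO samples, and no cell of the matrix is tied to a mouse or a sample. Without replicates no test between groups of mice or cells was possible, and every interval given is a 95% interval that covers counting error only. Livers were dissociated with enzymes and red cells were lysed.

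Of 4694 cells with 28912707 UMIs, 4616 were kept, with a median of 4857 UMIs per cell (2371 to 40710). A class was found for 4073 of them (88.2%), 242 met the gates of unrelated classes and were set aside as mixed, and 301 met no gate. No cell barcode occurred more than once. Clu, whose loss the label CluKO names, had 13751 UMIs (479 CPM, counts scaled to a total of 1000000 UMIs, 471 to 487) and a UMI in 98.0% of mesothelial-marker cells, which goes against the label. The library is therefore called the matrix labelled CluKO, and a tag outside a deleted part of Clu would check nothing.

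Type I collagen is built mainly of α1(I) and α2(I) chains, the products of Col1a1 and Col1a2, and type III collagen of α1(III) chains from Col3a1. Type V collagen, made of chains from Col5a1, Col5a2 and Col5a3 in different combinations, is a minor partner that co-assembles with type I and helps fibrils start and limits their width. In an injured liver these fibrils make up much of the scar, and stellate cells and portal fibroblasts are known as their main producers. Mesothelial cells form the thin sheet that covers the liver surface.

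Col3a1 (ENSMUSG00000026043) spans chr1:45311538-45349706 on the plus strand of GRCm38, and Col5a2 (ENSMUSG00000026042) spans chr1:45374321-45503282 on the minus strand. These neighbours point their 3' ends at each other across 24614 bases with 0 annotated genes between them. Col1a1 (ENSMUSG00000001506) lies at chr11:94936224-94953042 on the plus strand and Col1a2 (ENSMUSG00000029661) at chr6:4504814-4541544 on the plus strand. Col5a1 (ENSMUSG00000026837) lies at chr2:27886425-28039514 on the plus strand and Col5a3 (ENSMUSG00000004098) at chr9:20770050-20815067 on the minus strand. The 250 bases before the start of Col3a1, Col5a1 and Col5a3 are shown as those of members that were higher in one mesothelial state, described with its values further on. The sequences are those of RefSeq on GRCm38.p6, read 5′ to 3′ on the strand of the gene, with matches to CCAAT, the GC box GGGCGG and TATAAA, searched on both strands, in capitals.
Col3a1, chr1:45311288-45311537, plus strand: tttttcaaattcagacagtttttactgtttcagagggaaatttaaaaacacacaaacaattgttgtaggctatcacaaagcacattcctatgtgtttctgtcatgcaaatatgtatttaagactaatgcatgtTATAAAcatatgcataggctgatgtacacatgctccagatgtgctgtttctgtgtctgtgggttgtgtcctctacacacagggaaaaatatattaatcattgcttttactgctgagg
Col5a1, chr2:27886175-27886424, plus strand: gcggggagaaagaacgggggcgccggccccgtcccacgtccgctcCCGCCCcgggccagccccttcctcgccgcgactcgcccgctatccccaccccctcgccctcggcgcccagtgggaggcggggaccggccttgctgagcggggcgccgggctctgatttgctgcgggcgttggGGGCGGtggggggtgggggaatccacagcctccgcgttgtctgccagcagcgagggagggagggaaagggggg
Col5a3, chr9:20815068-20815317, minus strand: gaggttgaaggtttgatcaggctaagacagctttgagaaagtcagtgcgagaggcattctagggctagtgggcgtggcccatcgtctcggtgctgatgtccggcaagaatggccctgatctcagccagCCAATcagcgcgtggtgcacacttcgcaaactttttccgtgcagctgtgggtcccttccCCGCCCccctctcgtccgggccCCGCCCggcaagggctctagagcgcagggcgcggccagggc
The Col3a1 window held TATAAA at -117 from the start and no other motif searched, and 35.2% of its bases were G or C. The Col5a1 window held GGGCGG at -73 and its reverse complement CCGCCC at -205, with 76.4% G or C. The Col5a3 window held CCAAT at -122 and CCGCCC at -63 and -41, with 62.8% G or C. Among all 32851 RefSeq promoter windows of this length, CCAAT or its complement was found in 33.8%, the GC box in 32.7% and TATAAA in 12.4%, and the median G or C content was 52.4%. No motif searched was shared by all 3 windows, and a match is a description of letters only. Promoters were matched for 4 of the 6 genes. Col1a2 was higher in that state too, but its RefSeq window lies inside the gene as annotated for these positions and is not printed. It held CCAAT at -109 and GGGCGG at -205 and -188. Col1a1 and Col5a2 are named only.

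Transcripts of the 6 collagen genes lay almost wholly in cells with mesothelial markers. Of 496 mesothelial-marker cells, gated on at least 4 of 12 genes such as Msln and Upk3b, 495 had a UMI of at least 1 member. These cells were 10.7% of the cells kept and held 91.2% of the members' UMIs in all cells kept. All 12 mesothelial markers were counted in them, with a summed level of 8717 CPM against 24.3 CPM in the 3878 other cells. Median depth was 7178.5 UMIs in mesothelial-marker cells and 4528 in all other cells. The level summed over the 6 genes was 6396 CPM (6318 to 6474) in mesothelial-marker cells and 44.0 CPM (41.3 to 46.8) in all other cells, a ratio of 145 (137 to 155). Mixed cells entered neither side and cells without a class counted among the others. With gates that asked for 1 marker more the ratio was 63.5, and with mixed cells placed in the class with more markers it was 94.1.

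**Figure D1:**
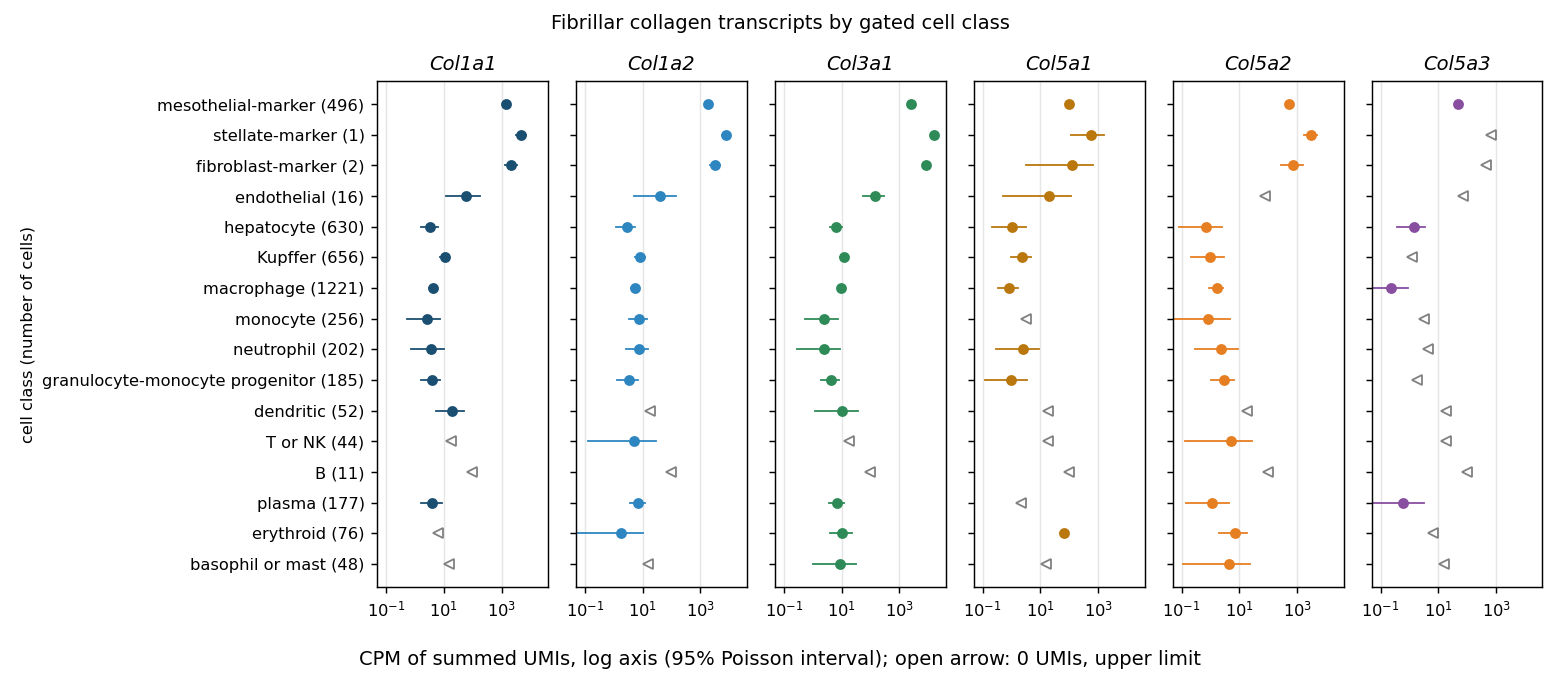
Level of each collagen gene (CPM of summed UMIs, log axis) in each gated class, with the number of cells in parentheses. Points are levels and lines are 95% Poisson intervals, and open arrows mark the upper limit where no UMI was counted. The mesothelial-marker point stands above the point of hepatocytes and of each blood-cell class for each gene, with the erythroid Col5a1 point at 65.9 CPM nearest to it. In the 11 B cells no UMI was counted and the upper limit of 96.5 CPM lies above the mesothelial-marker points of Col5a1 and Col5a3.

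Among the major chains, Col3a1 was the most abundant, with 9948 UMIs (2440 CPM, 2392 to 2489) in mesothelial-marker cells and 400 UMIs (17.7 CPM, 16.04 to 19.6) in all other cells. Col1a2 followed with 7530 UMIs (1847 CPM, 1806 to 1889) in mesothelial-marker cells, against 233 UMIs (10.3 CPM) in all other cells. Col1a1 had 5836 UMIs (1431.5 CPM, 1395 to 1469) in mesothelial-marker cells, against 218 UMIs (9.66 CPM) in all other cells. The ratios between both sets of cells were 138 (125 to 152) for Col3a1, 179 (157 to 205) for Col1a2 and 148 (129 to 170) for Col1a1. Each UMI marks 1 poly-A end whatever the length of the transcript, so these levels need no scaling by length.

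The type V chains were rarer and unequal. Col5a2 reached 533 CPM (510 to 555) in mesothelial-marker cells and 2.84 CPM in all other cells, a ratio of 188 (146 to 245). Col5a1 stood at 95.4 CPM (86.2 to 105) in mesothelial-marker cells and 2.88 CPM in all other cells, a ratio of 33.1 (25.4 to 43.8) and the lowest of the 6. Col5a3 had 201 UMIs (49.3 CPM, 42.7 to 56.6) in mesothelial-marker cells and 12 UMIs in all other cells, a ratio of 92.7 (51.9 to 182). Genes were compared where they had 30 or more UMIs in both sets together and reached 50 CPM in one of them. Of 4205 such genes, 23.1% were at least 2-fold higher in mesothelial-marker cells and 17.4% at least 2-fold lower. Of the members, 5 passed that filter, all through their level in mesothelial-marker cells, and Col5a3 did not, so their direction there is given as a description.

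The stromal cells usually named as collagen producers were almost missing from the matrix. The stellate gate (at least 5 of 12 markers such as Lrat, Reln and Des) was met by 4 cells, of which 3 also met another gate and were set aside as mixed. Among the 5444 UMIs of the 1 cell kept were 26 of Col1a1, 42 of Col1a2, 83 of Col3a1, 3 of Col5a1, 16 of Col5a2 and 0 of Col5a3. Its summed level of 31227 CPM (26709 to 36290) was above that of the pooled mesothelial-marker cells. Both cells of the fibroblast gate (at least 8 of 12 markers such as Pi16 and Cd34) carried Col3a1 most, with 18 of 29 member UMIs in one cell and 50 of 91 in the other. Together these 2 cells reached 14508 CPM (12029 to 17349). The first of them spent 0.505% of its UMIs on the members, near the median of 0.423% of mesothelial-marker cells. For Col1a1, Col1a2, Col3a1, Col5a1 and Col5a2 the level ran from stellate-marker over fibroblast-marker to mesothelial-marker cells. The intervals of all neighbours in that order were separate for Col1a2 and Col3a1. They overlapped between all neighbours for Col1a1 and Col5a1, and between fibroblast-marker and mesothelial-marker cells for Col5a2. Of the mixed cells, one with 9 stellate and 9 endothelial markers had 115 member UMIs, one with 6 stellate, 5 smooth muscle and 9 hepatocyte markers had 352, and one with 5 stellate and 10 mesothelial markers had 7. Col5a3 had no UMI in the stellate cell kept, in the fibroblast-marker cells or in these mixed cells.

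In the named classes other than mesothelial and stromal cells, few collagen UMIs were counted per cell. Of these 3574 cells, 3172 (88.8%) had no member UMI, 338 had 1 and 62 had 2 to 7. The 2 cells with 8 or more held 21 of the 506 UMIs. In 630 hepatocytes the summed level was 16.003 CPM (11.7 to 21.3), in 2133 cells of the macrophage lineage 24.3 CPM (21.7 to 27.2) and in 743 blood cells taken as background 23.6 CPM (19.8 to 28.0). These background cells are neutrophils, granulocyte-monocyte progenitors, lymphocytes, plasma, erythroid, basophil and mast cells, which are not known as collagen producers. A Col3a1 UMI was found in 95.6% of mesothelial-marker cells, 2.70% of hepatocytes, 4.97% of macrophage-lineage cells and 4.04% of the background cells. With each cell thinned to 1000 UMIs these shares were 67.9%, 0.317%, 0.891% and 0.404%. The intervals of the unthinned shares overlapped between macrophage-lineage cells (4.09 to 5.98) and background cells (2.74 to 5.71). Those of the Col3a1 level did not, with 9.50 CPM (7.87 to 11.4) in macrophage-lineage cells and 5.47 CPM (3.71 to 7.76) in background cells. Kupffer cells, the resident macrophages of the liver, had a Col1a1 level of 10.8 CPM (7.46 to 15.2) and a summed level of 34.8 CPM (28.5 to 42.1). Col1a1 was 3.17 CPM (1.88 to 5.02) in background cells, and both Kupffer intervals were separate from the background. Median depth was 4207.5 UMIs in Kupffer and 6164 in background cells. The share of cells with any member UMI was 13.7% (11.2 to 16.6) in Kupffer and 13.5% (11.1 to 16.1) in background cells. Thinned to 1000 UMIs it was 3.66% (2.36 to 5.39) in Kupffer and 2.15% (1.24 to 3.47) in background cells. The intervals of these shares overlapped at both depths. Of the 134 member UMIs of the background cells, 37 were Col5a1 in erythroid cells. In the 16 endothelial cells the summed level was 261 CPM (139 to 446), and all 13 UMIs there lay in 1 cell.

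The ratio of Col3a1 to Col1a1 did not differ beyond counting error between mesothelial-marker cells and the few UMIs of blood cells. It was 1.70 (1.65 to 1.76) in mesothelial-marker cells, 1.64 (1.22 to 2.23) in macrophage-lineage cells and 1.72 (0.934 to 3.27) in background blood cells. In the stellate-marker cell it was 3.19 (2.03 to 5.17) and in the fibroblast-marker cells 3.78 (2.22 to 6.75). Col1a1 over Col1a2 was 0.775 (0.749 to 0.802) in mesothelial-marker cells and 0.913 (0.655 to 1.27) in macrophage-lineage cells. Transcripts of the α1(I) chain were thus counted less often than those of the α2(I) chain in mesothelial-marker cells. Some ratios with type V chains did differ. Col5a2 over Col5a1 was 1.29 (0.604 to 2.79) in macrophage-lineage and 5.58 (5.01 to 6.23) in mesothelial-marker cells. Col5a2 over Col3a1 was 0.516 (0.264 to 0.973) in background blood cells and 0.218 (0.208 to 0.229) in mesothelial-marker cells. In macrophage-lineage cells it was 0.15 (0.0860 to 0.247), which overlaps the mesothelial-marker interval.

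Col5a1 was the exception to the mesothelial pattern, with a second site in erythroid cells. The 76 erythroid-gated cells (at least 5 markers of red cell precursors) had 37 Col5a1 UMIs in 17 cells, a level of 65.9 CPM (46.4 to 90.8). The share of cells with a UMI was 22.4% (13.6 to 33.4) at a median depth of 5012.5 UMIs, and 7.89% (2.95 to 16.4) after thinning. The other members showed no such level in these cells: Col1a1 and Col5a3 had 0 UMIs, Col1a2 had 1, Col5a2 had 4 and Col3a1 had 6. Of the 65 Col5a1 UMIs in all other cells, the erythroid cells held 37, against 0 in 177 plasma cells and 2 in 185 granulocyte-monocyte progenitors. Mixed cells, left out of these 65, held 15. The richest erythroid cell had 7 UMIs, and without it the level was 54.8 CPM. With a gate that asked for 1 marker fewer, the level in 103 cells was 43.2 CPM (27.7 to 64.3). Gm13372, an annotated transcript on the opposite strand inside Col5a1, had 1 UMI in erythroid cells. The sources used here do not say whether counting used strand, so reads from the strands of this locus cannot be told apart. The ratio of Col5a2 to Col5a1 was 0.108 (0.0280 to 0.301) in erythroid cells and 5.58 (5.01 to 6.23) in mesothelial-marker cells.

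Within the mesothelial-marker cells the major chains and Col5a2 were each found in most cells, and so often in the same cell. Whether the joint shares below exceed those that the single shares would give was not tested. A UMI of Col1a1 was found in 92.3% of the 496 cells (89.6 to 94.5), of Col1a2 in 86.5% (83.2 to 89.4) and of Col3a1 in 95.6% (93.4 to 97.2). Col5a2 was found in 84.3% (80.8 to 87.4), Col5a1 in 38.9% (34.6 to 43.4) and Col5a3 in 20.4% (16.9 to 24.2). All of Col1a1, Col1a2 and Col3a1 occurred in 390 cells (78.6%, 74.8 to 82.2), against 9 of 3878 other cells (0.232%) and 0 of 743 background blood cells, a count that allows up to 0.404%. At 1000 UMIs per cell the share in mesothelial-marker cells was 37.3% (33.0 to 41.7). A type V chain stood beside a type I or III chain in 446 cells (89.9%, 86.9 to 92.4). All 6 genes were counted in 54 cells, 5 of them in 136, 4 in 187, 3 in 89, 2 in 25, 1 in 4 and none in 1 cell.

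How far detection of one chain went with detection of another differed between pairs. Col3a1 was found in 95.6% of the cells with a Col1a1 UMI and 94.7% of those without, and in 95.8% of the cells with a Col1a2 UMI and 94.0% of those without. Col5a1 was found in 42.9% of the 429 cells with a Col1a2 UMI (38.2 to 47.7, median 7223 UMIs) and in 13.4% of the 67 cells without (6.33 to 24.0, median 6881 UMIs). Its partner chain Col5a2 was found in 85.1% of the cells with a Col1a2 UMI (81.4 to 88.3) and in 79.1% of those without (67.4 to 88.1), intervals that overlap. Cells with a Col5a3 UMI had Col5a1 in 59.4% of 101 cells (49.2 to 69.1), against 33.7% of the 395 cells without Col5a3 (29.0 to 38.6). Median depth was 7805 UMIs in cells with Col5a3 and 6979 in cells without, and the part of depth in this difference was not tested. Among non-cycling cells split by Enpp2, with at least 2 UMIs (Enpp2-positive) or none (Enpp2-negative), these intervals overlapped, with Col5a1 in 66.7% (47.2 to 82.7) of Enpp2-positive cells with Col5a3 and 40% (27.6 to 53.5) of those without, and in 46.4% (27.5 to 66.1) of Enpp2-negative cells with Col5a3 and 28.0% (22.4 to 34.1) of those without.

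The load of collagen transcripts was very unequal between mesothelial-marker cells. The members took a median of 0.423% of the UMIs of a cell, with quartiles of 0.215% and 0.895% and a maximum of 5.55%. Ranked by member UMIs without scaling for depth, the first 50 of these 496 cells held 38.7% of the member UMIs of the class. Depth thus enters that share. Part of this spread followed Enpp2, the gene of autotaxin, a secreted enzyme that makes the lipid signal lysophosphatidic acid. Non-cycling cells with at least 2 Enpp2 UMIs (90 cells, median 5489.5 UMIs) are called Enpp2-positive and those with none (271 cells, median 7058 UMIs) Enpp2-negative. Enpp2 is no member, and the gate was chosen with earlier results of these data known, so the values are descriptive.

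**Figure D2:**
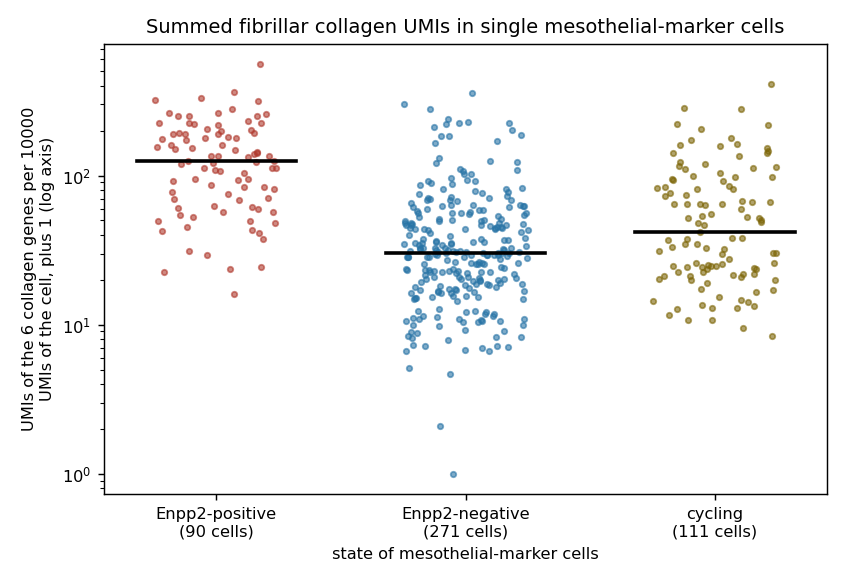
Summed UMIs of the 6 collagen genes per 10000 UMIs of the same cell, plus 1, on a log axis, for each mesothelial-marker cell by state, with black bars at the medians. The median is 124 in Enpp2-positive cells, 29.4 in Enpp2-negative cells and 40.9 in cycling cells, and the ranges overlap. The 24 non-cycling cells with 1 Enpp2 UMI are not shown.

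In Enpp2-positive cells the members summed to 14319 CPM (14003 to 14641), against 4516 CPM (4425 to 4609) in Enpp2-negative cells, a ratio of 3.17 (3.08 to 3.27). Per 10000 UMIs, an Enpp2-positive cell had between 15.1 and 555 member UMIs with a median of 124, and an Enpp2-negative cell between 0 and 354 with a median of 29.4. The ranges thus overlap widely while the medians lie apart. Of 3722 genes that passed the filter, 7.39% were at least 2-fold higher in Enpp2-positive cells and 7.47% at least 2-fold lower. Among the 6 members, 5 were at least 2-fold higher and the remaining one, Col5a2, was lower. Col5a3, at 21.8 CPM in Enpp2-negative cells, passed the filter only through Enpp2-positive cells, so its direction is given as a description.

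Col3a1 stood at 5912 CPM in Enpp2-positive and 1574 CPM in Enpp2-negative cells, a ratio of 3.76 (3.58 to 3.94). Per 10000 UMIs its lowest, median and highest cell values were 4.04, 48.6 and 227 in Enpp2-positive cells, against 0, 8.58 and 156 in Enpp2-negative cells. Both type I chains moved by similar factors. Col1a1 was 3466 CPM in Enpp2-positive and 948 CPM in Enpp2-negative cells, a ratio of 3.65 (3.43 to 3.90), with a cell median of 29.7 per 10000 in Enpp2-positive and 5.04 in Enpp2-negative cells. Col1a2 was 4240 CPM in Enpp2-positive and 1315 CPM in Enpp2-negative cells, a ratio of 3.23 (3.05 to 3.41), with a cell median of 33.5 per 10000 in Enpp2-positive and 7.02 in Enpp2-negative cells. The Col1a1 to Col1a2 ratio was 0.817 (0.769 to 0.869) in Enpp2-positive cells and 0.721 (0.680 to 0.765) in Enpp2-negative cells.

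The 3 type V chains split. Col5a3 had the highest ratio of the 6, with 120 CPM (65 UMIs) in Enpp2-positive and 21.8 CPM (45 UMIs) in Enpp2-negative cells, or 5.49 (3.69 to 8.21). Col5a1 was 188 CPM (102 UMIs) in Enpp2-positive and 64.0 CPM (132 UMIs) in Enpp2-negative cells, a ratio of 2.94 (2.24 to 3.83). After thinning that ratio was 1.66 (0.717 to 3.63), under the 2-fold mark and within counting error of 1. Col5a2 went the other way, with 394 CPM (343 to 450) in Enpp2-positive and 594 CPM (561 to 628) in Enpp2-negative cells, a ratio of 0.664 (0.571 to 0.768), or 1.51-fold lower (1.30 to 1.75). A Col5a2 UMI was found in 72.2% of Enpp2-positive cells (61.8 to 81.1) and 85.6% of Enpp2-negative cells (80.9 to 89.6). After thinning the share was 32.2% (22.8 to 42.9) in Enpp2-positive and 41.0% (35.0 to 47.1) in Enpp2-negative cells, with overlapping intervals, and the ratio of levels was 0.743 (0.512 to 1.06).

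**Figure D3:**
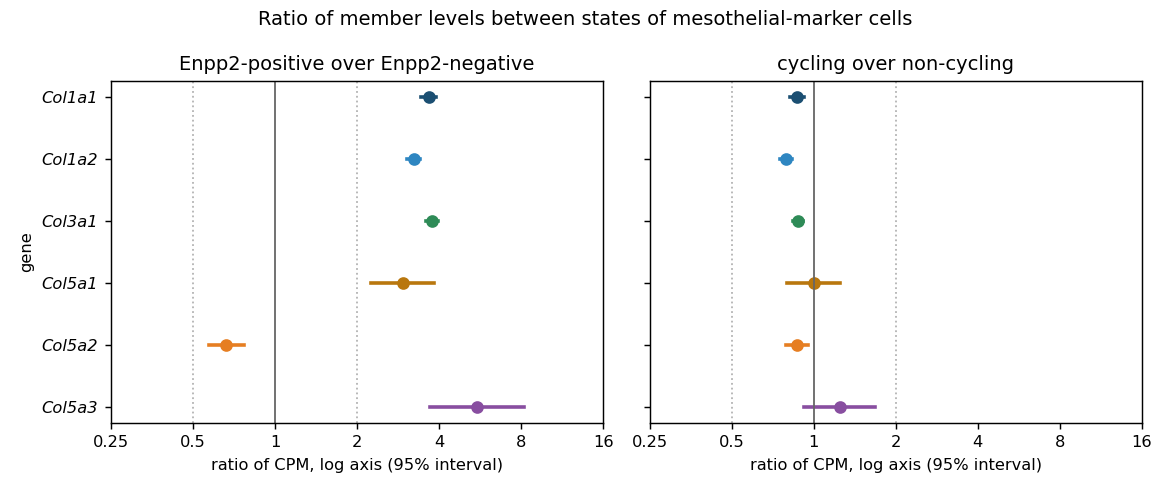
Ratio of CPM (log axis) of each member between Enpp2-positive and Enpp2-negative cells on the left, and between cycling and non-cycling mesothelial-marker cells on the right, with 95% conditional binomial intervals. Dotted lines mark 2-fold. On the left 5 genes lie above 2-fold and Col5a2 at 0.664, and on the right all 6 lie within 2-fold.

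Col5a2 and Col3a1, neighbours in the genome, therefore differed in direction between these states. Col5a2 over Col3a1 was 0.0666 (0.0577 to 0.0765) in Enpp2-positive and 0.377 (0.353 to 0.403) in Enpp2-negative cells. Col5a2 over its chain partner Col5a1 was 2.10 (1.65 to 2.68) in Enpp2-positive and 9.28 (7.75 to 11.2) in Enpp2-negative cells. Type V chains made up 4.90% of member UMIs in Enpp2-positive and 15.0% in Enpp2-negative cells, while Col3a1 made up 41.3% in Enpp2-positive and 34.9% in Enpp2-negative cells.

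**Figure D4:**
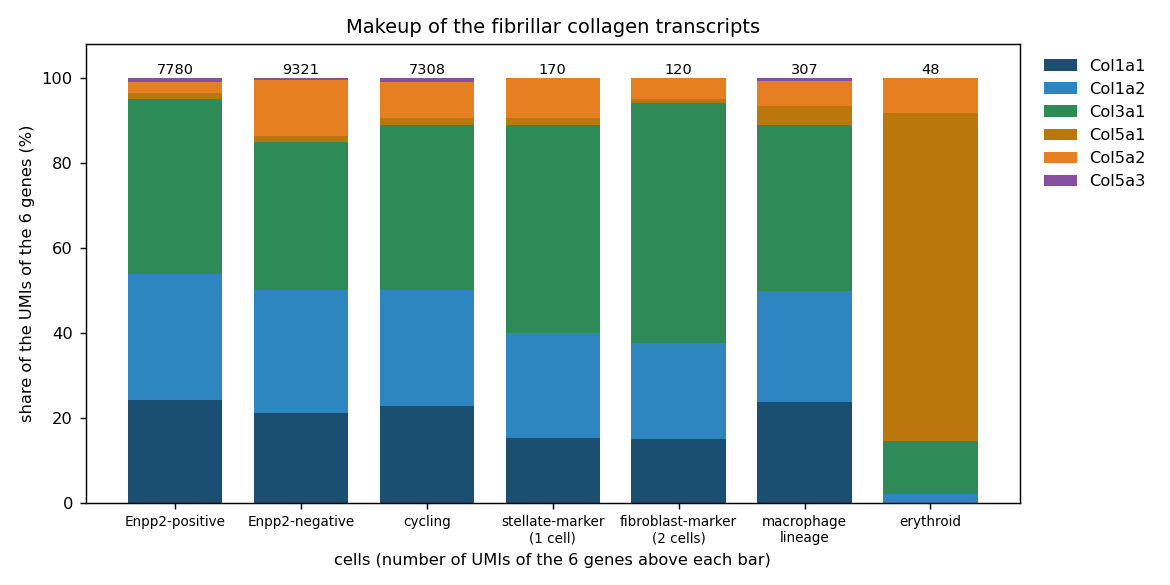
Share of each gene (%) in the UMIs of the 6 collagen genes, for states of mesothelial-marker cells and for other cells, with the number of UMIs above each bar. Col5a2 takes a larger share in Enpp2-negative than in Enpp2-positive cells, and Col5a1 takes most of the 48 UMIs of erythroid cells.

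In non-cycling cells the summed level was higher from 1 Enpp2 UMI on and changed little above 2 UMIs. Cells with 0 Enpp2 UMIs had a summed level of 4516 CPM, those with 1 UMI (24 cells) 8708 CPM, with 2 to 4 (23 cells) 14588 CPM, with 5 to 9 (29 cells) 14922 CPM and with 10 or more (38 cells) 13813 CPM. Over the same steps Col5a2 was 594, 601, 433, 384 and 381 CPM. Col5a1 was 64.0, 172, 173, 182 and 198 CPM, and so stood near its upper level from 1 UMI on. In cycling cells, left out of this gate, the members summed to 12183 CPM in the 33 cells with 2 or more Enpp2 UMIs, 4297 CPM in the 7 with 1 and 3602 CPM in the 71 with none. Col3a1 was 895 CPM (710 to 1114) in the cycling cells with 1 Enpp2 UMI and 1295 CPM (1221 to 1372) in those with none, so it was not higher at 1 UMI there. Col5a2 was 305 CPM (247 to 374) in the cycling cells with 2 or more Enpp2 UMIs and 539 CPM (492 to 590) in the cycling cells with no Enpp2 UMI.

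Other markers moved with this split. The 12 mesothelial markers, all counted in both states, summed to 6024 CPM in Enpp2-positive and 10157 CPM in Enpp2-negative cells. The fibroblast list summed to 2096 CPM in Enpp2-positive cells, with Dpep1, Dpt, Gli1 and Mfap4 at 0, and to 991 CPM in Enpp2-negative cells, with Dpep1 and Mfap4 at 0. Stellate markers summed to 699 CPM in Enpp2-positive and 817 CPM in Enpp2-negative cells, with Reln and Rgs5 at 0 in both. Erythroid genes, haemoglobin among them, summed to 8875 CPM in Enpp2-positive and 5824 CPM in Enpp2-negative cells. Endothelial markers summed to 18.4 CPM in Enpp2-positive and 83.8 CPM in Enpp2-negative cells, monocyte markers to 359 CPM in Enpp2-positive and 234 CPM in Enpp2-negative cells, and dendritic cell markers to 370 CPM in Enpp2-positive and 230.1 CPM in Enpp2-negative cells. Cholangiocyte (bile duct cell) markers, with 2 of 8 counted in each state, summed to 107 CPM in Enpp2-positive and 492 CPM in Enpp2-negative cells. The part of these marker differences in the collagen difference was not tested. Clu was 1778 CPM in Enpp2-positive and 1762 CPM in Enpp2-negative cells.

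Inside each state, cells rich in one major chain tended to be rich in the others. Across the 90 Enpp2-positive cells, Spearman's rho of values per 10000 UMIs was 0.75 for Col1a1 with Col1a2, 0.62 for Col1a1 with Col3a1 and 0.51 for Col3a1 with Col5a2. Across the 271 Enpp2-negative cells the same pairs gave 0.67, 0.44 and 0.37. Across the 111 cycling cells they gave 0.82, 0.67 and 0.027, the last for Col3a1 with the type V chain Col5a2. Thinned to 1000 UMIs, Col1a1 with Col1a2 gave 0.47 in Enpp2-positive, 0.52 in Enpp2-negative and 0.49 in cycling cells. Col3a1 with Col5a2 then gave 0.068 in Enpp2-positive, 0.094 in Enpp2-negative and 0.045 in cycling cells, so it was low in each state at this depth. All cells come from 1 matrix and each pair shares the cell's total as divisor, so these are descriptions.

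The members differed little between dividing and other mesothelial-marker cells. The 111 cycling mesothelial-marker cells, gated on at least 6 of 12 cell cycle genes (median 9973 UMIs), had a summed level of 5717 CPM (5587 to 5850), against 6706 CPM in the 385 non-cycling cells (median 6570 UMIs), a ratio of 0.853 (0.830 to 0.876). Of 3901 genes, 8.33% were at least 2-fold higher in cycling cells and 2.72% at least 2-fold lower, and 0 of the 6 members was either. For 6 genes, 0 is near these shares and says little. Col1a2 had the lowest ratio, 0.792 (0.752 to 0.833), at 1565 CPM in cycling and 1976 CPM in non-cycling cells. Col5a1 stood at 95.4 CPM in both, but thinned to 1000 UMIs its ratio was 1.69 (0.922 to 3.00). The Col3a1 ratio was 0.874 (0.837 to 0.913), but thinned to 1000 UMIs it was 1.12, in the opposite direction. Enpp2 at 2 or more UMIs was found in 33 of 111 cycling and 90 of 385 non-cycling cells.

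The 5 other fibrillar collagen genes were nearly silent. Col24a1 had 41 UMIs in mesothelial-marker cells and 2 in all other cells, and Col27a1 had 12 UMIs in mesothelial-marker cells and 21 in all other cells. Col11a2, an α2 chain gene of type XI collagen, had 2 UMIs in mesothelial-marker cells and 45 in all other cells. Col2a1 and Col11a1, chains of cartilage fibrils, had 0 UMIs in both sets. None reached 50 CPM on either side.

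Genes of the rest of the collagen pathway came from lists chosen with earlier results of these data known. List genes under 50 CPM in one of the sets compared, such as Dcn or Tgfb1, passed the filter only through the other set. Their direction is therefore given as a description. In mesothelial-marker cells against all other cells, 23.1% of all genes tested were at least 2-fold higher and 17.4% at least 2-fold lower. Beside that, 8 of 14 genes for chain modification and folding that passed were at least 2-fold higher and 1 at least 2-fold lower. Their median log2 ratio, with 20 CPM added to each side, was 1.13, against 0.057 over all genes tested. Serpinh1, the procollagen chaperone HSP47, was 1961 CPM in mesothelial-marker and 10.2 CPM in all other cells. P3h4, part of a lysyl hydroxylation complex, was 241 CPM in mesothelial-marker and 0.887 CPM in all other cells. Colgalt1, which adds galactose to hydroxylysine, was 79.7 CPM in mesothelial-marker and 115 CPM in all other cells. Plod1, a lysyl hydroxylase, was 27.0 CPM in mesothelial-marker and 70.1 CPM in all other cells, and so ran against the list.

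Export and processing genes were at least 2-fold higher in 5 of 9 cases, led by Pcolce, an enhancer of procollagen C-proteinase, at 615 CPM in mesothelial-marker and 4.08 CPM in all other cells. Adamts2, which removes the N-propeptide, was 115 CPM in mesothelial-marker and 1.11 CPM in all other cells. Among cross-linking genes 3 of 4 were at least 2-fold higher, namely the lysyl oxidases Loxl1, Loxl2 and Lox, with Loxl1 at 449 CPM in mesothelial-marker and 1.77 CPM in all other cells. All 12 partners of fibril assembly that passed were at least 2-fold higher. They ranged from the proteoglycan gene Dcn, at 6266 CPM in mesothelial-marker and 42.1 CPM in all other cells, to Fn1, the fibronectin gene, at 690 CPM in mesothelial-marker and 121 CPM in all other cells. Receptor genes divided, with Ddr1, Ddr2 and Itgb1 at least 2-fold higher and the scavenger receptor Cd36 and the inhibitory collagen receptor Lair1 at least 2-fold lower. Of 9 signal genes, 7 were at least 2-fold higher and 2 lower. Tgfb2 was 84.9 CPM in mesothelial-marker and 0.222 CPM in all other cells, while Tgfb1 was 17.4 CPM in mesothelial-marker and 140 CPM in all other cells. Of 6 regulators, 3 were at least 2-fold higher, namely Creb3l1, Klf4 and Wwtr1. These list counts stand beside 23.1% at least 2-fold higher and 17.4% at least 2-fold lower over all genes tested. The medians on the same log2 scale were 0.84 for export, 3.15 for cross-linking, 3.33 for assembly partners, 0.97 for receptors, 1.23 for regulators and 1.83 for signals.

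Between Enpp2 states, few genes of the collagen machinery passed 2-fold. Their counts stand beside 7.39% higher and 7.47% lower over all genes, and no difference from the 6 members was tested. List genes under 50 CPM in one state passed the filter only through the other state, so their direction is given as a description. Of 15 genes for modification and folding, 1 was at least 2-fold higher, Crtap of the prolyl 3-hydroxylation complex, at 339 CPM in Enpp2-positive and 164 CPM in Enpp2-negative cells. Serpinh1 was 2192 CPM in Enpp2-positive and 1739 CPM in Enpp2-negative cells, a ratio of 1.26 (1.18 to 1.35). The lowest of the list was Plod2, a lysyl hydroxylase of telopeptides, at 118 CPM in Enpp2-positive and 187 CPM in Enpp2-negative cells. Of 9 export and processing genes 1 was at least 2-fold higher, Bmp1, the procollagen C-proteinase, at 225 CPM in Enpp2-positive and 67.3 CPM in Enpp2-negative cells. Cross-linking genes had 0 of 4 past 2-fold, with Loxl2 at 311 CPM in Enpp2-positive and 182 CPM in Enpp2-negative cells and Lox at 101 CPM in Enpp2-positive and 138 CPM in Enpp2-negative cells. The list medians on the log2 scale with 20 CPM added were 0.25 for folding, 0.20 for export, -0.26 for cross-linking, 0.56 for assembly partners, 0.22 for receptors, 0.46 for regulators and -0.02 for signals, against 0.062 over all genes tested.

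**Figure D5:**
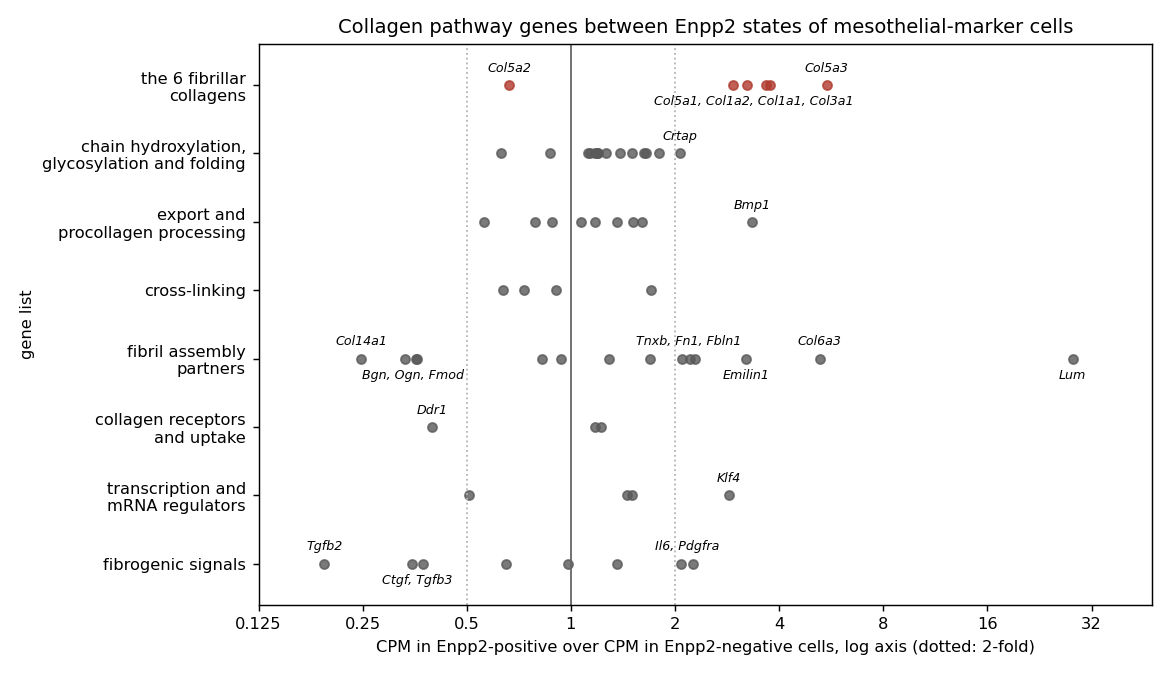
Ratio of CPM between Enpp2-positive and Enpp2-negative cells (log axis) for the 6 collagen genes in red and for the genes of each pathway list that passed the filter in grey, with Enpp2 itself left out. Names are given for the 6 genes and for others past 2-fold (dotted lines). The fibril assembly partners reach both sides, from Col14a1 to Lum.

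Partners of fibril assembly split in both directions, with 6 of 14 at least 2-fold higher in Enpp2-positive cells and 4 at least 2-fold lower. Lum, the gene of the proteoglycan lumican, was 95.7 CPM (52 UMIs) in Enpp2-positive and 3.39 CPM (7 UMIs) in Enpp2-negative cells, a ratio of 28.2 (12.8 to 73.6). Col6a3, a chain of the beaded-filament collagen VI, was 134 CPM in Enpp2-positive and 25.7 CPM in Enpp2-negative cells. Emilin1, Fbln1, Fn1 and Tnxb were the other 4 higher genes. On the other side stood Col14a1, a collagen that binds to fibril surfaces, at 79.1 CPM in Enpp2-positive and 320 CPM in Enpp2-negative cells. Bgn, the gene of biglycan, was 512 CPM in Enpp2-positive and 1540 CPM in Enpp2-negative cells, a ratio of 0.332 (0.293 to 0.376). The related proteoglycan genes Ogn and Fmod were also at least 2-fold lower. Col6a1 and Col6a2, the other collagen VI chains counted, had ratios of 0.822 and 0.938. Col5a2 thus stood on the side of Bgn, Ogn, Fmod and Col14a1, and Lum on the side of Col5a1, Col5a3 and the major chains.

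Signal genes were divided too. Pdgfra, a receptor of platelet-derived growth factor, was 99.4 CPM in Enpp2-positive and 44.1 CPM in Enpp2-negative cells, and Il6 was 62.6 CPM in Enpp2-positive and 30.04 CPM in Enpp2-negative cells. Tgfb2 was 23.9 CPM in Enpp2-positive and 124 CPM in Enpp2-negative cells, a ratio of 0.194 (0.102 to 0.337), and Tgfb3 was 29.4 CPM in Enpp2-positive and 79.0 CPM in Enpp2-negative cells. Ctgf, a matricellular gene, was 20.2 CPM in Enpp2-positive and 58.1 CPM in Enpp2-negative cells. With Enpp2 itself, fixed by the gate, 3 of 9 genes were at least 2-fold higher and 3 at least 2-fold lower. Among 4 regulators Klf4 was at least 2-fold higher, at 427 CPM in Enpp2-positive and 149 CPM in Enpp2-negative cells. Of 3 receptor genes Ddr1 was at least 2-fold lower, at 75.5 CPM in Enpp2-positive and 190 CPM in Enpp2-negative cells, and Ddr2 had a ratio of 1.22. In cycling against non-cycling cells, 0 of 13 folding, 0 of 9 export, 0 of 4 cross-linking and 0 of 3 receptor genes passed 2-fold. Over all genes, 8.33% were at least 2-fold higher and 2.72% at least 2-fold lower, so 0 in lists this short says little. Ogn, Col14a1 and Fmod among 12 partners and Tgfb3 and Ctgf among 8 signal genes were at least 2-fold lower in cycling cells, and Nfyb, a subunit of the factor that binds CCAAT, was the 1 of 6 regulators at least 2-fold higher. The lowest list medians there were -0.39 for assembly partners and -0.62 for signals, against 0.055 over all genes tested.

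Genes whose level per cell ran most like the summed members were ranked by Spearman's rho across the 496 mesothelial-marker cells, among 4458 genes found in at least 20% of them. Sparc, a collagen-binding matricellular gene, led with 0.63, and held within states at 0.80 across Enpp2-positive and 0.67 across Enpp2-negative cells. Fn1 was 0.54 across all 496 cells, 0.47 in Enpp2-positive and 0.55 in Enpp2-negative cells. Ccdc80, a matrix gene, was 0.53 across all cells, 0.26 in Enpp2-positive and 0.41 in Enpp2-negative cells. Lgals1, Csrp2 and Igfbp4 gave 0.62, 0.57 and 0.48 across all cells, with -0.12, -0.39 and -0.40 within Enpp2-positive and 0.42, 0.44 and 0.30 within Enpp2-negative cells. Fndc1 (0.63), Enpp2 (0.56), Ifi205 (0.49) and Col6a3 (0.47) completed the first 10. Within Enpp2-positive cells Fndc1, Enpp2, Ifi205 and Col6a3 gave 0.23, -0.003, 0.16 and 0.25. Within Enpp2-negative cells, where the gate leaves no Enpp2 value, Fndc1, Ifi205 and Col6a3 gave 0.32, 0.27 and 0.34. At the other end stood Myl7 (-0.63), Cpe (-0.61), Alcam (-0.60), AU021092 (-0.60), Id1 (-0.59), Msln (-0.56), Slc39a8 (-0.56), Bst1 (-0.55), Gabarapl1 (-0.52) and Tm4sf1 (-0.52). Within Enpp2-negative cells these genes ran from -0.43 (Myl7) to -0.30 (Tm4sf1). Within Enpp2-positive cells they ran from -0.31 (Gabarapl1) to -0.07 (AU021092), with no value for Bst1, at 0 CPM there. Msln is one of the markers of the gate. All values share the cell's total as divisor and come from 1 matrix.

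Across the 13 classes with at least 15 cells, the genes most like the summed members, by Pearson's r of log2(CPM + 20) among 7408 genes, were Ehd2 (0.99), Folr1 (0.98), Fhl1 (0.98), Lox (0.98) and Pcolce (0.98). In each of these the mesothelial-marker class was the highest, so that 1 class sets the value of r. Lox, a cross-linking enzyme, was 134 CPM in mesothelial-marker cells and at most 20.05 CPM in any other of these classes, and Pcolce was 615 CPM and at most 40.1 CPM.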

How the data were processed

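The authors deposited raw UMI counts per gene and cell. The libraries were made with a Singleron microwell kit that tags poly-A ends, per the labels' protocols. The submitters' processing notes name GRCm38 as the build. For the aligner, the counter, its use of strand and the calling of cells, a name or setting was not given in the sources used here.

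The cells kept had 200 or more genes and no more than 20% mitochondrial counts. A cell entered 1 of 16 classes by its number of distinct markers with a UMI. No doublet caller was run, and cells that met the gates of unrelated classes were left out as mixed. Counts were summed per class and given as CPM, with exact Poisson intervals. Ratios carry conditional binomial and shares Clopper-Pearson intervals, all at 95%. Where a share is 0, 3 counts set the limit. PCR copies are removed by UMIs, and the intervals cover counting error only. Shares were repeated with every cell thinned to 1000 UMIs, a depth that 0 kept cells fell below. No comparison has replicates, so none has a test. Genes were compared where both sides together had 30 or more UMIs and one side reached 50 CPM, and 2-fold was the mark. The 2-fold calls and the intervals of ratios were tested on simulated counts. Thinning was checked on cells of this matrix, for the depth reached only. The members, gene lists, markers, gates and comparisons were chosen with earlier results of these data known. All 6 members are named. From each list the 2 highest and 2 lowest genes, or genes introduced by role, are named, and the 10 genes at each end of the likeness across cells and the first 5 across classes. For the likeness, mitochondrial, ribosomal, Gm-named, Rik-named and Y-linked genes and Xist were left out. Positions come from GENCODE on GRCm38. Python 3.11.15, numpy 2.4.6, scipy 1.17.1 and pandas 2.3.3 were used.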

Additional observations from a re-analysis of the deposited data

How the results depend on the processing

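Settings were changed one at a time. Of the 80 changes tried on the main values, 45 stayed inside the counting interval of the reported value and 35 left it, and none turned a direction. With 1 more marker per gate, levels in mesothelial-marker cells were 1359 CPM for Col1a1, 1758 for Col1a2 and 2335 for Col3a1, the mesothelial share of UMIs 88.7%, the ratio to other cells 63.5 and the cycling ratio 0.879. With 1 fewer marker the share was 70.3%, the Enpp2 ratio 3.46 and the cycling ratio 0.982. That gate left 412 mesothelial-marker cells, because more cells met several gates. With mixed cells assigned, Col1a2 was 1797 CPM, the share 94.3% and the ratios 94.1 to other cells and 0.823 for cycling. Thinned to 1000 UMIs per cell, Col1a2, Col3a1 and Col5a1 were 2040, 2585 and 117 CPM in mesothelial-marker cells, the share 88.9%, the ratio to other cells 117, the cycling ratio 0.995, Col1a1 over Col1a2 0.694 and the share of cells with Col1a1, Col1a2 and Col3a1 37.3%. With equal weight per cell, Col1a1, Col1a2 and Col3a1 were 1548, 2077 and 2609 CPM with a ratio to other cells of 123 and a cycling ratio of 0.949. Scaled to UMIs outside the 50 most abundant genes and the members, the levels of the 6 genes were 1699, 2193, 2897, 113, 632 and 58.5 CPM and the ratio to other cells 132. The Enpp2 ratio was 2.85 with positive cells set at 1 or more UMIs and 3.29 at 4 or more. The stricter cell filter moved none of these values out of its interval.

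The cycling ratio of Col3a1 turned to 1.10 with the looser gates, 1.12 after thinning and 1.03 with equal weight per cell. That of Col5a1 was between 0.981 and 1.69 in 7 alternatives, the highest after thinning. The Enpp2 ratio of Col5a2 stayed between 0.627 and 0.754 in all 9 alternatives, and thinned its interval included 1. Thinning, which leaves fewer counts, changed the number of genes past 2-fold to 139 higher with Enpp2, against 275 at full depth, and with cycling to 168 higher and 223 lower, against 325 and 106. The member-wise changes and these counts beyond the count filter were added after the data were seen. No paired analysis was possible because all cells come from 1 pooled matrix and the result comes from no test. Depth limits Col5a1 and Col5a3 most, with 1 or no UMI in most cells.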
